A study of Neurospora crassa with 24 samples.

Results

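The effect of the medium on the opening step of conidial germination in Neurospora crassa was measured gene by gene as a difference of changes. For each gene the log2 change of its RNA level between 15 and 120 min on maple sap medium (MSM) was taken, and the log2 change over the same interval on the synthetic Bird medium (BM) was subtracted from it. Each change was first reduced by the median change of all genes on that medium. A gene was included where all 4 of the levels involved, and their lower 95% bounds, were above 0, which held for 8856 of the 9730 genes in the deposited tables. A positive difference says that the level of a gene moved further up, or less far down, on MSM than on BM, and it says nothing on whether the RNA was more abundant on MSM at either time.

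All libraries came from macroconidia of the wild-type mat A strain FGSC2489, raised on Bird medium and then spread on cellophane over MSM (maple sap set with agar and with very little nitrogen) or over BM (rich in carbon and nitrogen) under constant white light. RNA was taken 15, 120, 240 and 360 min after plating on each medium, from 3 biological replicates separated in time, each pooled from several plates, so that 12 of the 24 libraries lie behind the difference described here. The times were set by how spores look on BM, where 15 min stands for fresh conidia and 120 min for polar growth, and the same times were used on MSM, where the study saw germination begin earlier and germ tubes extend more slowly. An effect of the medium and a difference in developmental timing therefore cannot be told apart, nor, in bulk RNA, a change in the RNA of each spore and a change in how many spores had germinated.

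A conidium is a dormant asexual spore that carries stored transcripts, trehalose, glycogen and lipid. On germination it takes up water, breaks down these reserves, resumes protein synthesis and pushes out a polar germ tube, and it has to build transporters and enzymes for whatever carbon, nitrogen and phosphate the substrate offers. Vacuoles, peroxisomes, mitochondria and the proteasome are remodelled in the same period.

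The deposited values are relative levels from the LOX program, in which the lowest stage of a gene on a medium is set to 1 and the 3 replicates are already combined, each with a 95% interval. Levels are thus comparable between times on a medium, and not between the media or between genes. The authors' interval, on the log2 scale, was turned into an SE, and the difference between the media was tested with a two-sided z test. A gene was called where the Bonferroni adjusted p over the 8856 genes was below 0.01 and the difference was 2-fold or more (1 or more in log2). The median SE of a difference was 0.0421, and the intervals may not hold the whole spread among replicates, which the tables do not show. Among 1668 called genes the largest adjusted p was 0.00958, and for 553 the p was too small for the computer to represent, so that differences are given below with their SE in place of single p-values. The median gene changed by 0.02 in log2 on MSM and by -0.37 on BM as deposited, so the deposited difference of any gene is 0.39 higher than the difference given here. Bounds in parentheses after a level are the authors' 95% bounds, and every change or difference is in log2 after the median gene's value is taken off.

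The opening step differed between the media for a large part of the genome, and more genes were higher than lower on MSM. Calls were made for 18.8% of the 8856 genes, 1089 (12.3%) of them higher and 579 (6.54%) lower. Without the fold minimum 5876 genes (66.4%) passed the test, 3064 (34.6%) higher and 2812 (31.8%) lower. Higher genes made up 65.3% of the calls. Without centring on the median gene they made up 87.5%, with 1847 genes higher and 265 lower, and with centring on the mean 961 were higher and 737 lower. Without centring 18 of the lower genes named below fall short of 2-fold, at -0.99 to -0.62: acw-2, acw-12, aro-6, aro-7, cat-2, cat-3, clr-1, cpc-3, csp-2, fsd-1, hsp80, pan-2, pdx-1, pdx-2, phy-2, set-9, thr-5 and tim22. Differences of 4-fold or more were called for 247 genes higher on MSM and 134 lower, and of 8-fold or more for 45 and 56 genes. Changes were wider on MSM, with an SD over genes of 1.03 in log2, against 0.73 on BM. The changes of the same genes on the 2 media were only loosely related across genes (Pearson's r = 0.32 and Spearman's rho = 0.31 over 8856 genes, which are not independent and whose changes come from separate libraries). A further 516 genes differed by 2-fold or more without passing the test, with a median SE of 0.83.

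Among the higher genes the largest class was that of genes called as risen on MSM alone, and among the lower genes that of genes called as fallen on MSM alone. Within a medium and by the same rule, 1008 genes (11.4%) rose and 821 (9.27%) fell on MSM, against 218 (2.46%) that rose and 622 (7.02%) that fell on BM. Without centring 84 genes rose and 1126 fell on BM, so the classes below that involve BM depend on it. Of the 1089 genes higher on MSM, 520 (47.8%) rose on MSM without a call on BM, 256 (23.5%) fell on BM without a call on MSM, 212 (19.5%) had no call on either medium and 44 rose on MSM and fell on BM. Another 38 rose on both and 19 fell on both. Of the 579 lower genes, 317 fell on MSM alone, 162 had no call on either medium, 38 rose on BM alone, 36 fell on both, 25 fell on MSM and rose on BM and 1 rose on both. The plot of the change on MSM against the change on BM shows these classes as distance from the diagonal.

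**Figure D1:**
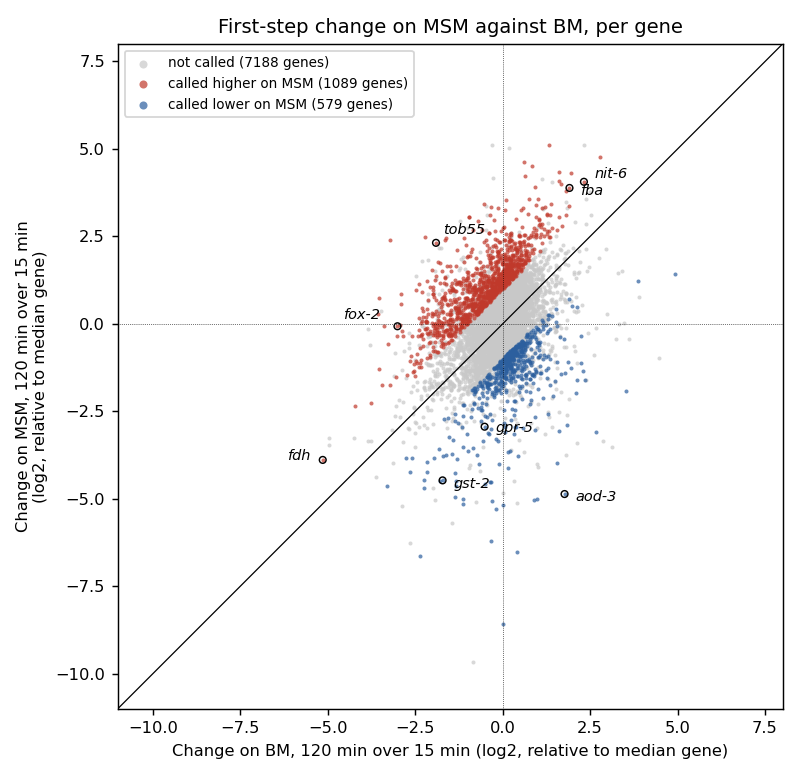
Each point is a gene, with its log2 change between 15 and 120 min on BM on the horizontal axis and on MSM on the vertical axis, both relative to the median gene. The 1089 genes called higher on MSM lie above the diagonal of equal change and the 579 called lower lie below it, with aod-3 and gst-2 far down on MSM and fdh far down on both media.

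The leading genes, by the bound of the difference nearest to 0 and over all genes, were mostly genes with no symbol. NCU04697 had a level of 11.9 (10.7 to 13.5) at 120 min and 1082 (1079.7 to 1083) at 15 min on MSM, against 4.84 (4.8 to 4.89) and 4.73 (4.69 to 4.77) on BM. It fell on MSM and was not called on BM, a difference of -6.93 ± 0.0872 (SE). NCU09231 stood at 1 (0.953 to 1.04) and 72 (71.9 to 72.1) on MSM at 120 and 15 min, against 19.97 (19.9 to 20.1) and 32.8 (32.7 to 32.8) on BM. NCU07781 followed the same order, with a difference of -5.96 ± 0.248. For NCU10448 the level at 120 min on MSM was 1 (0.164 to 3.08), against 375 (371 to 379) at 15 min, so that its difference of -8.60 carried an SE of 1.08. At the other end, NCU01768 had 5.66 (5.53 to 5.79) at 120 min and 1 (0.943 to 1.05) at 15 min on MSM, against 1 (0.969 to 1.03) and 6.04 (5.98 to 6.1) on BM. It rose on MSM and fell on BM, and the intervals of both times did not overlap on either medium, a difference of 4.70 ± 0.0509. NCU03415 kept 2.57 (2.53 to 2.6) at 120 min and 1.52 (1.49 to 1.54) at 15 min on MSM, against 1 (0.941 to 1.06) and 15.1 (15 to 15.1) on BM, so that its difference of 4.28 ± 0.0479 came mainly from BM.

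Of the 1103 tested genes that carry a symbol, 176 were called higher and 47 lower, against 12.3% higher and 6.54% lower among all genes. The plot of the 20 leading genes in each direction shows how each difference arises. Among the higher genes, tob55, gsy-1, fbp-1, egt-1, gpi-1, sod-1, acu-9, pex11, erp38 and rib-3 rose on MSM and fell on BM. By contrast fox-2, acd-2, npd-2 and tre-1 had changes on MSM of -0.07, -0.21, -0.35 and 0.09 that were not called, and fell on BM. The genes nde-1, vma-13 and csy rose on MSM, with changes on BM of -0.20, 0.01 and -0.47 that were not called. Among the lower genes only aod-3 had calls of opposite sign. The genes gst-2, gst-1 and mig-7 fell on both media and further on MSM, and tcu-1, the gene of a copper transporter, rose by 1.53 on BM with a change of 0.05 on MSM.

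**Figure D2:**
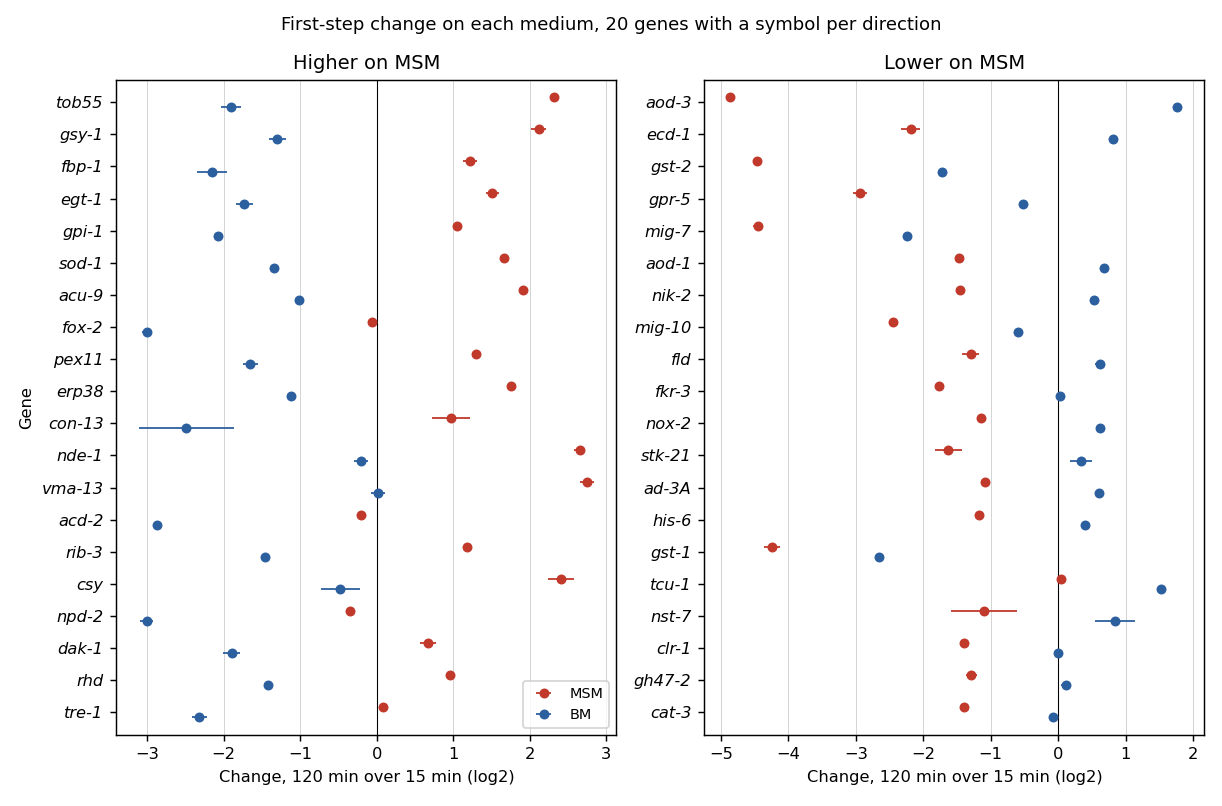
Log2 change between 15 and 120 min on MSM (red) and BM (blue), relative to the median gene, with bars for 95% intervals (often hidden by the point), for the 20 genes with a symbol whose difference lies furthest above 0 (left) and below 0 (right) by its nearer 95% bound. Most genes on the left sit right of 0 on MSM and left of 0 on BM, and on the right most MSM points lie further left than those of BM and left of 0.

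Genes higher on MSM were found among those of carbohydrate storage, glycolysis and gluconeogenesis. Of 5 tested trehalose and glycogen genes 3 were called higher and none lower, of 8 glycolysis and fermentation genes 5 and none, and of 7 genes of gluconeogenesis, the glyoxylate cycle and acetate use 4 and none. The background was 12.3% higher and 6.54% lower among all genes, and the other 2, 3 and 3 members were not called. The median differences of these lists were 1.78, 1.40 and 1.01, against 0.03 over all genes. The glycogen synthase gene gsy-1 had 4.4 (4.25 to 4.51) at 120 min and 1 (0.941 to 1.06) at 15 min on MSM, against 1 (0.933 to 1.07) and 3.19 (3.08 to 3.31) on BM, a difference of 3.42 ± 0.0754. The glycogenin gene gnn, whose product primes glycogen, stood at 7.21 (7.11 to 7.3) and 1 (0.959 to 1.04) on MSM, against 1.6 (1.58 to 1.62) and 1 (0.986 to 1.01) on BM. Both rose on MSM, but gnn also rose on BM, by 1.05 after centring. As deposited, the level of gnn on BM went from 1 to 1.6, short of 2-fold. The trehalase gene tre-1, whose enzyme splits trehalose, held 4.29 (4.21 to 4.37) at 120 min and 3.98 (3.9 to 4.06) at 15 min on MSM, against 1.11 (1.05 to 1.19) and 7.17 (7.07 to 7.29) on BM, so that it fell on BM alone. The other gene of the list with a tre symbol was not called (0.63 ± 0.0488), with changes of -0.10 on MSM and -0.73 on BM. The gene ccg-9 fell alike on both, by -2.01 on MSM and -1.98 on BM.

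The called glycolytic genes rose on MSM, and some of them also on BM by less. The aldolase gene fba had 15 (14.9 to 15.1) at 120 min and 1 (0.978 to 1.02) at 15 min on MSM, against 2.91 (2.89 to 2.92) and 1 (0.985 to 1.01) on BM, a difference of 1.97 ± 0.0206. Phosphoglycerate kinase (pgk) and emp-7 likewise rose on both media, with differences of 1.47 ± 0.032 and 1.33 ± 0.01. Glyceraldehyde-3-phosphate dehydrogenase (gpd-1) was called as risen on MSM only, with 4.92 (4.9 to 4.93) and 1 (0.992 to 1.01) on MSM, against 1 (0.997 to 1) and 1.02 (1.02 to 1.03) on BM. The glucose-6-phosphate isomerase gene gpi-1 stood apart in that it fell on BM, with 2.1 (2.06 to 2.15) and 1 (0.967 to 1.03) on MSM, against 1 (0.97 to 1.03) and 5.44 (5.39 to 5.49) on BM. In the opposite pathway, fructose-1,6-bisphosphatase (fbp-1) had 2.36 (2.28 to 2.44) and 1 (0.944 to 1.05) on MSM, against 1.37 (1.19 to 1.54) and 7.87 (7.61 to 8.16) on BM, a difference of 3.37 ± 0.109. The malate synthase gene acu-9 of the glyoxylate cycle had 3.83 (3.81 to 3.85) and 1 (0.985 to 1.01) on MSM, against 1.09 (1.06 to 1.12) and 2.84 (2.8 to 2.88) on BM. Genes of the same group at the low end were acu-3 at -0.56 ± 0.00694 and acu-15 at -0.53 ± 0.0181, both short of 2-fold. Citrate synthase (cit-1) was the only called gene of 5 in the TCA cycle list, at 1.34 ± 0.00763. Of the genes with emp symbols all 4 were called higher, and of 16 with tca symbols 6, against 12.3% of all genes. These groups of symbols were added after values were seen.

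Sucrose is the main sugar of maple sap, and the invertase gene inv, whose product splits sucrose, differed between the media through its fall on BM. It held 4.81 (4.78 to 4.83) at 120 min and 5.06 (5.04 to 5.08) at 15 min on MSM, against 15.9 (15.7 to 16) and 68.8 (68.7 to 69) on BM, a difference of 1.65 ± 0.00832. The other 9 genes of sugar uptake and carbon repression were not called, from -0.45 ± 0.0088 for cre-1, the carbon repressor, to 0.91 ± 0.0183 for prk-10. Among all genes 12.3% were higher and 6.54% lower.

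The genes for nitrate uptake and reduction rose on MSM, and the formamidase gene with them. Of 15 nitrogen genes 7 were called higher and none lower, against 12.3% higher and 6.54% lower among all genes, and the median was 0.14. The nitrite reductase gene nit-6 stood at 16.9 (16.7 to 17.2) at 120 min and 1 (0.941 to 1.06) at 15 min on MSM, against 3.87 (3.71 to 4) and 1 (0.938 to 1.06) on BM, a difference of 1.74 ± 0.0688. The nitrate reductase gene nit-3 had 4.51 (4.44 to 4.59) and 1 (0.966 to 1.04) on MSM, against 1.09 (1.05 to 1.12) and 1 (0.968 to 1.04) on BM. The nitrate transporter gene nit-10 had 4.37 (4.3 to 4.44) and 1 (0.964 to 1.03) on MSM, against 1 (0.975 to 1.03) and 1.14 (1.11 to 1.17) on BM. All 3 rose on MSM, and only nit-6 was called on BM as well. The formamidase gene NCU02361 showed the largest difference of the list, 3.45 ± 0.0702, with 10.1 (9.97 to 10.2) and 1 (0.967 to 1.03) on MSM, against 1 (0.929 to 1.07) and 1.42 (1.35 to 1.5) on BM. Glutamine synthetase gln-2 (1.10 ± 0.0236) and xanthine dehydrogenase xdh-1 (1.27 ± 0.0421) were also higher, xdh-1 through a fall on BM. The formate dehydrogenase gene fdh fell on both media and less so on MSM, by -3.89, against -5.14 on BM. The nitrogen regulators nit-2 (0.14 ± 0.013), nit-4 (-0.53 ± 0.0369) and nmr (-0.57 ± 0.0184) and the ammonium-assimilating genes am (0.08 ± 0.00444) and gln-1 (-0.59 ± 0.00372) did not reach 2-fold. The cyanate lyase gene, NCU01258, declined on both media, by less than 2-fold on MSM and further on BM. It had 1.24 (1.22 to 1.26) at 120 min and 2.31 (2.29 to 2.34) at 15 min on MSM, against 3.51 (3.42 to 3.6) and 27.9 (27.8 to 28) on BM, a difference of 1.70 ± 0.0234.

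The phosphate permease genes pho-4 and pho-5 rose on MSM and were not called on BM, and they were the only called genes of 7 (12.3% of all genes were higher). The permease gene pho-5 had 5.6 (5.58 to 5.62) at 120 min and 1 (0.987 to 1.01) at 15 min on MSM, against 2.11 (2.07 to 2.16) and 1.66 (1.62 to 1.7) on BM, a difference of 1.75 ± 0.0248. The permease gene pho-4 was close to it at 1.54 ± 0.0302. The other 5 genes of the phosphate list were not called, among them pho-3 at 3.76, whose SE of 0.776 left it short of the test, and the regulator nuc-1 at -0.15 ± 0.0233. Of 8 sulfur genes only the arylsulfatase gene ars-1 was called, at 1.68 ± 0.325, although the sulfate permease gene cys-14 rose on both media, by 2.17 on MSM and 2.02 on BM.

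The vacuolar ATPase divided along its 2 sectors. This proton pump acidifies the vacuole and consists of a peripheral V1 sector, which hydrolyses ATP, and a membrane sector, Vo, through which protons pass. Of the 23 genes in the list of vacuolar and plasma membrane ATPases 12 were called higher on MSM and none lower. Among all genes 12.3% were higher and 6.54% lower. The list had a median difference of 1.11, and all 23 differences were above 0. The V1 genes vma-1, vma-2, vma-4, vma-5, vma-7, vma-8, vma-10 and vma-13 were all called, with differences from 1.11 to 2.74 and a median of 1.66. They rose on MSM by 1.21 to 2.75 and were not called on BM, where they changed by -0.60 to 0.47. None of the 6 Vo genes vma-3, vma-6, vma-9, vma-11, vma-16 and vph-1 was called, with differences from 0.25 to 0.67. They changed by -0.35 to 0.22 on MSM and by -0.68 to -0.30 on BM. Without centring vma-6 was called, at 1.06. For the V1 gene vma-13 the levels were 6.81 (6.68 to 6.95) at 120 min and 1 (0.94 to 1.06) at 15 min on MSM, against 1 (0.956 to 1.05) and 1.28 (1.23 to 1.34) on BM. For the Vo gene vma-3 they were 1.09 (1.09 to 1.1) and 1 (0.993 to 1.01) on MSM, against 1 (0.991 to 1.01) and 1.68 (1.67 to 1.69) on BM. The split by sector was drawn after the values were seen and is a description. The plasma membrane proton pump gene pma-1 hardly differed (0.05 ± 0.00276), and the calcium transporter genes cax, nca-1 and nca-2 were called at 1.20 ± 0.035, 1.20 ± 0.0165 and 1.11 ± 0.0265.

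Subunit genes of the proteasome, which degrades ubiquitin-tagged proteins, were higher on MSM. Of 29 genes in the proteasome and ubiquitin list 15 were called higher and none lower, with a median of 1.00. Among all genes 12.3% were higher and 6.54% lower. The 15 called genes comprised 10 of the 11 rpn genes for non-ATPase subunits of the regulatory particle. The others were 4 of the 5 rpt genes for its ATPases and csn-4 of the COP9 signalosome. The rpn genes rose on MSM by a median of 1.51, against 0.11 on BM, and 10 were called as risen on MSM and none on BM. The gene rpn-3 had 4.52 (4.37 to 4.65) at 120 min and 1 (0.939 to 1.06) at 15 min on MSM, against 1 (0.95 to 1.05) and 1.2 (1.14 to 1.25) on BM, a difference of 2.04 ± 0.0714. The ATPase gene rpt-2 followed at 1.87 ± 0.0418, and the subunit genes left uncalled were rpn-12 (0.40 ± 0.0275) and rpt-1 (0.69 ± 0.0345). Without centring rpt-1 was called, at 1.09. The gene rpn-4, in yeast a transcription factor for proteasome genes and not a subunit, was left out of the rpn count, a choice made after values were seen. Its level was 8.45 (8.37 to 8.54) and 17.6 (17.5 to 17.7) on MSM, against 9.45 (9.39 to 9.52) and 22.1 (22 to 22.2) on BM, a difference of -0.23 ± 0.0103. The 7 csn genes had a median of 0.62. The 13 tested genes with pca and pcb symbols, a group also added afterwards, held 10 called genes, with pca-5 at 2.34 ± 0.0445.

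The peroxisomal genes with the widest differences fell on BM, and others rose on MSM. Of 23 genes 8 were called higher and 1 lower, with a median of 0.82, against 12.3% higher and 6.54% lower among all genes. Peroxisomes carry out beta-oxidation of the spore's fatty acids, and fox-2 encodes an enzyme of that pathway. Its level was 1 (0.988 to 1.01) at 120 min and 1.03 (1.02 to 1.05) at 15 min on MSM, against 1 (0.957 to 1.04) and 10.4 (10.3 to 10.5) on BM, a difference of 2.94 ± 0.0331. The import receptor gene pex7 had 1.23 (1.2 to 1.27) and 1 (0.968 to 1.03) on MSM, against 1 (0.921 to 1.09) and 5.71 (5.55 to 5.86) on BM. The proliferation gene pex11 rose on MSM, with 2.5 (2.46 to 2.54) and 1 (0.973 to 1.02), against 1 (0.936 to 1.06) and 4.07 (3.96 to 4.18) on BM. Also higher were pex31, pex3, pex10 and pex6, at 1.62 to 1.11, and hex-1, the gene of the Woronin body protein that plugs septal pores, at 1.25 ± 0.0112. The only lower member of the list was the catalase gene cat-2, at -1.11 ± 0.0243, which is also counted with the antioxidant genes. Its place in the list does not show that its product is peroxisomal.

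The outer membrane gene tob55, for the core of the machinery that inserts beta-barrel proteins, led the higher genes with a symbol at 4.22 ± 0.0703. It stood at 5.05 (4.98 to 5.12) at 120 min and 1 (0.966 to 1.03) at 15 min on MSM, against 1 (0.914 to 1.08) and 4.84 (4.67 to 5) on BM. The porin gene por rose on MSM, with 3.48 (3.47 to 3.5) and 1 (0.992 to 1.01), against 1 (0.988 to 1.01) and 1.31 (1.3 to 1.32) on BM. Of 30 genes of import and the outer membrane these and tom5 (1.58 ± 0.0208) were higher and tim22 (-1.04 ± 0.0143) lower, numbers near the background of 12.3% higher and 6.54% lower among all genes, and the median was -0.01, which turns to 0.38 without centring. Of 43 oxidative phosphorylation genes 3 were higher and none lower, the cytochrome oxidase genes cox-6 (1.55 ± 0.0145) and cox-4 (1.29 ± 0.0131) and the ATP synthase gene oli (1.00 ± 0.00409), which lay at the 2-fold limit. None of the 29 nuo genes of complex I was called, with a range of -0.56 to 0.98.

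Of 8 genes listed under alternative oxidases and rotenone-insensitive dehydrogenases 1 was called higher, 2 lower and 5 neither. Among all genes 12.3% were higher and 6.54% lower. Alternative oxidases pass electrons from ubiquinol to oxygen without pumping protons, and external NAD(P)H dehydrogenases feed electrons in without complex I. The alternative oxidase gene aod-3 had 1 (0.968 to 1.04) at 120 min and 28.7 (28.6 to 28.7) at 15 min on MSM, against 3.83 (3.76 to 3.91) and 1.45 (1.39 to 1.51) on BM, a difference of -6.63 ± 0.041. The gene aod-1, for the other called alternative oxidase, had 1 (0.965 to 1.03) and 2.74 (2.69 to 2.78) on MSM, against 1.37 (1.34 to 1.4) and 1.11 (1.08 to 1.14) on BM, a difference of -2.15 ± 0.0376. Both fell on MSM, and only aod-3 was called as risen on BM. The external dehydrogenase gene nde-1 rose on MSM, with 6.37 (6.26 to 6.48) and 1 (0.95 to 1.05), against 1 (0.945 to 1.05) and 1.49 (1.43 to 1.55) on BM, a difference of 2.86 ± 0.0627. The genes aod-2 (-0.32 ± 0.0167) and aod-5 (-0.19 ± 0.0157), which entered the list by symbol and are not taken as oxidase genes, were not called. Nor were the other dehydrogenase genes, nde-2 (-0.25 ± 0.00563), nde-3 (0.64 ± 0.0657) and ndi-1 (-0.38 ± 0.0115).

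Of 13 antioxidant genes 3 were called higher and 4 lower, against 12.3% higher and 6.54% lower among all genes. Higher were egt-1 of ergothioneine synthesis (3.24 ± 0.0698), the superoxide dismutase gene sod-1 (3.01 ± 0.0254) and the thioredoxin gene trx (1.06 ± 0.0474). The gene sod-1 had 3.21 (3.18 to 3.26) at 120 min and 1 (0.978 to 1.02) at 15 min on MSM, against 1 (0.978 to 1.02) and 3.29 (3.26 to 3.32) on BM. It rose on MSM and fell on BM. Lower were the glutathione S-transferase genes gst-2 and gst-1 and the catalase genes cat-2 and cat-3. All 4 gst genes fell on both media, by a median of -3.68 on MSM and -2.43 on BM. The gene gst-2 had 1.61 (1.59 to 1.66) and 35.3 (35.3 to 35.4) on MSM, against 23.8 (23.7 to 23.9) and 101 (101 to 101) on BM, a difference of -2.76 ± 0.0178. Of 13 heat shock and chaperone genes 3 were higher, grp78, hsp90a (1.33 ± 0.0271) and hsf-2 (1.01 ± 0.0233), and 1 lower, hsp80 (-1.01 ± 0.00583), whose difference is -0.62 and not called without centring. The gene grp78, for a chaperone of the endoplasmic reticulum, had 5.2 (5.16 to 5.24) and 1 (0.979 to 1.02) on MSM, against 1.17 (1.15 to 1.19) and 1 (0.982 to 1.02) on BM, and erp38, of the protein disulfide isomerase family and in none of the lists, had 3.44 (3.38 to 3.5) and 1 (0.969 to 1.03) on MSM, against 1 (0.972 to 1.02) and 2.8 (2.77 to 2.84) on BM.

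Genes of amino acid synthesis lay mostly below 0, by less than 2-fold. Of 51 genes 42 had a difference below 0 and the median was -0.44, but only 5 were called lower and 1 higher, against a background of 6.54% lower and 12.3% higher. Without centring 27 of 51 were below 0, the median was -0.05 and only 1 lower call, that of his-6, was left. The called genes were his-6 of histidine synthesis (-1.58 ± 0.00641), cpc-3, the kinase of cross-pathway control (-1.30 ± 0.0158), thr-5 (-1.18 ± 0.028), aro-7 (-1.11 ± 0.00602) and aro-6 (-1.02 ± 0.00564). The gene his-6 had 5.25 (5.22 to 5.29) at 120 min and 11.7 (11.7 to 11.7) at 15 min on MSM, against 6.79 (6.77 to 6.81) and 6.63 (6.61 to 6.65) on BM, and it was called as fallen on MSM alone. The gene cpc-3 had 1.3 (1.28 to 1.32) and 2.17 (2.14 to 2.19) on MSM, against 6.01 (5.96 to 6.05) and 5.35 (5.31 to 5.39) on BM. The exception was ilv-5, at 1.39 ± 0.0873, which fell on BM. The purine gene ad-3A had 4.16 (4.13 to 4.19) and 8.65 (8.62 to 8.69) on MSM, against 2.53 (2.52 to 2.54) and 2.14 (2.13 to 2.15) on BM, a difference of -1.69 ± 0.00794, and was the only called gene of 8 in purine and pyrimidine synthesis. Among 16 vitamin genes pan-2, pdx-1 and pdx-2 of pantothenate and pyridoxine synthesis were lower (-1.26 to -1.06), calls that all end without centring, and the riboflavin gene rib-3 was higher at 2.64 ± 0.0315. None of 12 cytosolic ribosomal protein genes was called, with differences from -0.36 to 0.23 and a median of -0.07, which turns to 0.32 without centring.

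Several conidiation genes fell on BM in this step and were not called on MSM. Of 35 genes of conidiation and clock output 8 were called higher and 2 lower, with a median of 0.32, against 12.3% higher and 6.54% lower among all genes. The hydrophobin gene eas, whose product coats the spore, had 2.93 (2.92 to 2.94) at 120 min and 3.23 (3.22 to 3.24) at 15 min on MSM, against 2.01 (1.99 to 2.03) and 13.7 (13.7 to 13.7) on BM, a difference of 2.24 ± 0.00644. The clock-controlled gene ccg-1 had 1.65 (1.63 to 1.66) and 2.1 (2.09 to 2.11) on MSM, against 1.5 (1.48 to 1.53) and 7.09 (7.05 to 7.13) on BM. The conidiation genes con-8 (1.13 ± 0.0166), con-10 (1.10 ± 0.0161) and con-13 (3.46 ± 0.34) likewise fell on BM and were not called as fallen on MSM. The aerial hyphae gene tah-4 was higher at 1.46 ± 0.159, and tah-1 was not called (0.59 ± 0.0612). The other higher members, gpd-1 and acu-6, entered the list by clock-controlled synonyms and encode metabolic enzymes. Lower were fld (-1.91 ± 0.0727) and csp-2 of conidial separation (-1.04 ± 0.0153). The genes with mig symbols, a group added afterwards, held 4 lower and 2 higher genes of 12. Of these mig-7 had 1 (0.956 to 1.05) and 21.6 (21.5 to 21.7) on MSM, against 9.16 (8.95 to 9.34) and 56.2 (56 to 56.4) on BM.

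Of 29 cell wall genes 7 were called higher and 2 lower, with a median of 0.42, against 12.3% higher and 6.54% lower among all genes. The leading member, acw-9, had 6.23 (6.22 to 6.26) at 120 min and 1 (0.993 to 1.01) at 15 min on MSM, against 1.4 (1.39 to 1.41) and 1 (0.992 to 1.01) on BM, a difference of 1.76 ± 0.00992. The glucanosyltransferase gene gel-1 (1.44 ± 0.0599) and the wall protein genes ncw-6, ncw-1, ncw-4 and acw-6 were higher at 1.70 to 1.03. The cyclophilin gene csr-1 (1.46 ± 0.0114) entered by its symbol and is no wall gene. The wall protein genes acw-2 (-1.11 ± 0.00867) and acw-12 (-1.08 ± 0.0453) were lower, and none of the 5 chitin synthase genes was called. Of 33 genes of the cytoskeleton and polarity 3 were called higher and none lower. This count was no higher than the background of 12.3% among all genes. The called genes were fim for fimbrin (1.60 ± 0.0236), arp-3 (1.28 ± 0.0274) and arp2 (1.06 ± 0.0265). The other genes with arp symbols were not called, at -0.50 to -0.08. The gene act, for actin, was called as risen on MSM, with 2.17 (2.16 to 2.18) and 1 (0.995 to 1.01), against 1 (0.995 to 1) and 1.01 (1 to 1.01) on BM, a difference of 0.74 ± 0.00721. The genes cot-1, cot-2, cot-3 and cot-5, whose mutants grow as compact colonies, ranged from -0.24 to 0.71.

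Genes of G protein and MAP kinase signaling were called in numbers near or below the background of 12.3% higher and 6.54% lower among all genes. The G protein-coupled receptor gene gpr-5 had 1.4 (1.3 to 1.5) at 120 min and 10.6 (10.4 to 10.7) at 15 min on MSM, against 4.84 (4.74 to 4.93) and 8.95 (8.86 to 9.05) on BM, a difference of -2.42 ± 0.0545. The catalytic subunit gene of protein kinase A, pkac-1, had 3.45 (3.28 to 3.62) and 1 (0.908 to 1.1) on MSM, against 1 (0.924 to 1.08) and 1.42 (1.33 to 1.51) on BM, a difference of 1.90 ± 0.108. They were the only called genes of 18, and the G alpha genes gna-1 (0.21 ± 0.00711) and gna-3 (-0.32 ± 0.0246) and the receptor genes gpr-4 (-0.01 ± 0.0646) and gpr-6 (0.20 ± 0.0234) were not called. Of 26 genes of the MAP kinase cascades 3 were higher and 1 lower, with a median of 0.10. The fusion pathway kinase gene mak-2 had 3.23 (3.2 to 3.25) and 1 (0.983 to 1.02) on MSM, against 1 (0.986 to 1.01) and 1.52 (1.49 to 1.54) on BM, a difference of 1.90 ± 0.0203. Its upstream kinase gene mek-2 (1.00 ± 0.0234, at the limit) and the phosphotransfer gene hpt-1 (1.15 ± 0.0176) were also higher, and the histidine kinase gene nik-2 was lower at -1.98 ± 0.0249. Of 3 NADPH oxidase genes nox-2 was lower at -1.76 ± 0.0246, with 1.01 (0.99 to 1.04) and 2.19 (2.17 to 2.22) on MSM, against 2.68 (2.65 to 2.72) and 2.25 (2.22 to 2.29) on BM. The calcium and calmodulin-dependent kinase gene camk-3 was higher at 1.86 ± 0.118, in a list of calcium and ion transport with 4 of 15 genes higher and 1 lower. The other higher genes of this list, cax, nca-1 and nca-2, are also counted above with the ATPases.

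The counts of called genes for light, mating, plant wall degradation and chromatin are to be read against 12.3% higher and 6.54% lower among all genes. Of 19 genes listed under the clock, light response and carotenoid synthesis, cao-1 (1.89 ± 0.274) and the carotenoid gene ylo-1 (1.02 ± 0.0347) were higher. The phytochrome gene phy-2 (-1.16 ± 0.139) was lower. The carotenoid genes al-1 (-0.43 ± 0.0125), al-2 (-0.26 ± 0.0183) and al-3 (-0.35 ± 0.0367) and the light-regulated gene sub-1 (0.22 ± 0.0145) were not called. Of 21 genes of mating and sexual development matA-1, the mating type regulator, was higher and fsd-1 (-1.05 ± 0.0209) lower. The gene matA-1 had 3.37 (3.32 to 3.42) at 120 min and 2.5 (2.45 to 2.55) at 15 min on MSM, against 2.69 (2.58 to 2.81) and 9.69 (9.53 to 9.87) on BM, a difference of 1.89 ± 0.0384. Among 81 tested glycoside hydrolase genes and their regulators 16 were higher and 4 lower, with gh47-5 at 2.47 ± 0.256 and the cellulase gene gh6-2 at 1.96 ± 0.167 among the higher and the cellulase regulator gene clr-1 at -1.39 ± 0.0261 among the lower. Of 51 chromatin genes 2 were higher, dim-8 (1.72 ± 0.0445) and set-7 (1.31 ± 0.0737), and 2 lower, nst-7 (-1.94 ± 0.294) and set-9 (-1.05 ± 0.103), and of 44 genes of DNA repair and silencing 2 were higher and none lower. No gene was called among those of the lists for quinate use (7 genes), lipid and sterol synthesis (7), autophagy (3) and the cell cycle (3), and 1 of 15 cell fusion genes was lower. The gene NCU08095 was not called (-0.33 ± 0.136). The plot of the members of 18 lists sets these groups side by side.

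The change between 240 and 360 min shares no sample with the opening step. Over that later interval the 1089 genes that had been higher on MSM in the opening step had a median difference of 0.03, with 146 higher and 63 lower, and 577 usable genes that had been lower had a median of -0.05, with 54 higher and 94 lower, against 5.89% higher and 8.36% lower among all 8676 genes usable at all times. The intervals from 15 to 240 and from 15 to 360 min share the 15 min samples with the opening step, so their values are only set beside it. The higher genes had median differences of 1.28 up to 240 min and 1.37 up to 360 min, and the lower genes -0.82 and -0.85. The interval from 120 to 240 min shares the 120 min samples with the opening step, with their sign turned, and there the medians were -0.28 for the higher genes and 0.86 for the lower genes. Up to 360 min aod-3 differed by -4.48, nde-1 by 2.91, inv by 3.67 and gsy-1 by 2.29, all called (as were 20.8% of genes higher and 18.9% lower), whereas gpr-5 differed by -0.68 and was not. For gst-2 the difference over the whole course was 1.81, of the opposite sign, its level having gone on falling on BM, where it was 1.93 (1.89 to 1.96) at 240 min and 1 (0.975 to 1.03) at 360 min. The trehalase gene tre-1 also declined on MSM later, with 1 (0.95 to 1.05) at 240 min. For nit-6 the level went on rising up to 360 min on MSM and up to 240 min on BM, with 81.2 (80.7 to 81.8) at 240 min and 147 (147 to 148) at 360 min on MSM, against 54.2 (53.8 to 54.5) and 40.03 (39.8 to 40.4) on BM. The plot of 12 genes over the 4 times shows these courses.

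**Figure D3:**
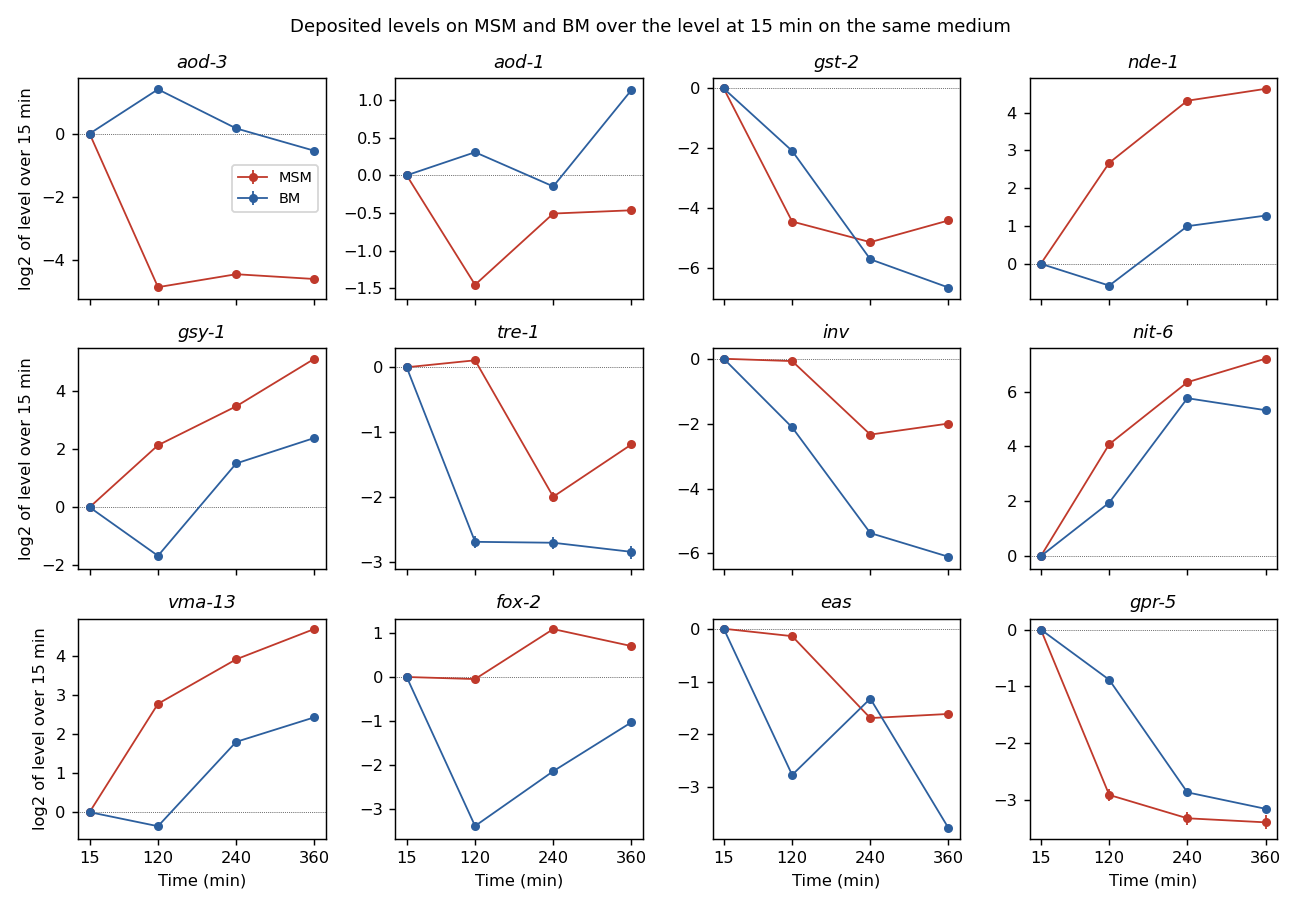
Deposited levels of 12 genes on MSM (red) and BM (blue) as log2 of the level over that at 15 min on the same medium, against time in min, not centred on the median gene, with the authors' 95% bounds of each level as bars (mostly within the points). The curves of aod-3, nde-1 and inv stay apart up to 360 min, and those of gst-2 and eas cross between 120 and 240 min.

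**Figure D4:**
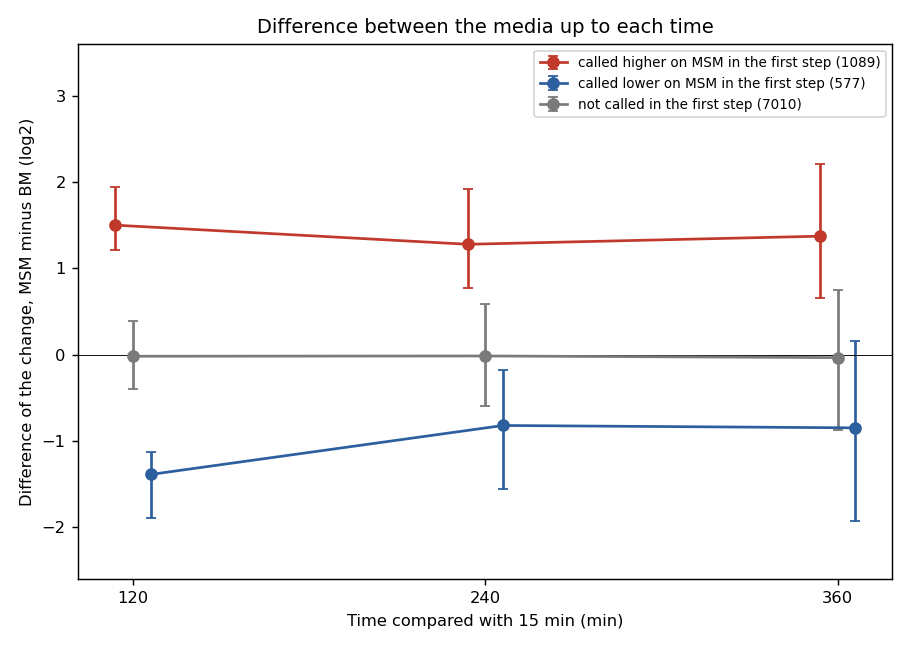
Median (points) and quartiles (bars) of the difference MSM minus BM, in log2, of the change from 15 min up to 120, 240 and 360 min, for genes called higher (1089, red) or lower (577, blue) on MSM in the opening step and for genes not called (7010, grey). The values at 120 min are those by which the red and blue genes were chosen, and all 3 times share the 15 min samples. The medians at 360 min are 1.37, -0.85 and -0.04.

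Called genes were spread over all 7 chromosomes, with 10.4% (III) to 14.9% (VII) of tested genes higher on MSM and 5.61% (III) to 7.35% (IV) lower. The next gene along the chromosome was also higher for 215 of 1024 higher genes with a tested neighbour (21.0%, against 12.3% of all genes), and also lower for 67 of 547 lower genes (12.2%, against 6.54%). Some neighbouring genes overlap, the libraries were made with a stranded kit, and the sources do not say whether the counting used strand, so the part of shared reads was not tested. The longest run of adjacent called genes held 5 genes higher on MSM on chromosome I, at 2669068 to 2686310 (NC12 assembly), from NCU02540 to NCU02544 with emp-1 in the middle (2.19 ± 0.0559). On chromosome VI the genes csy, pex11 and npd-2, side by side at 873510 to 880994, differed by 2.88 ± 0.155, 2.95 ± 0.0552 and 2.66 ± 0.0438, and fbp-1 lies close by at 854430 to 856333. Genes higher on MSM had a median length of 2147 bp and lower genes 1909 bp, against 2290 bp for genes not called.

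The 874 genes left out lacked a usable level at 1 or more of the 4 points. Of these, 295 had none at any of the 4 points, 86 lacked only the level at 120 min on BM and 64 only that at 120 min on MSM. Those lacking only 120 min on MSM include gh18-2, stk-35 and stk-56. A missing level says that no level above 0 was estimated at this depth, and 221 genes are listed at 0 at all 8 points of both tables.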

How the data were processed

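Wild-type macroconidia were sampled at 4 times on MSM and on BM, in 3 libraries per medium and time. Per the sources, reads were aligned with TopHat2 2.0.12, uniquely mapped reads were tallied over exons with HTSeq 0.6.1p1, and LOX combined the tallies of the 3 replicates. The deposited values are ratios by the authors, the level of a gene over its lowest stage on the same medium, with distances to 95% bounds. Columns carry a medium and a stage number, and stages were assigned to times in the order of their numbers. Depth and replicate values are not in the tables used here, so no share of reads, interval from counts or replicate SD could be given.

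Log2 changes, their SE (interval width on the log2 scale over its width in standard errors) and the centred difference MSM minus BM were computed with Python 3.11.15, NumPy 2.4.6, pandas 2.3.3 and SciPy 1.17.1, tested with a two-sided z test and adjusted by Bonferroni over 8856 genes. The procedure was first run on simulated differences, with noise drawn from the same SE that the test uses. That run checks the computation only and cannot show whether the intervals hold the spread among replicates. Gene names and positions came from a RefSeq table (NC12 assembly), which matched 9729 of 9730 IDs, 1118 with a symbol. Genes to be named were the 20 leading genes with a symbol and the 5 leading genes of all in each direction, by the bound nearest to 0, up to 6 called and the 2 smallest differences of each list, genes the study names, and members of lists of 12 genes or fewer. The rule covered 297 genes, of which 148 are named with values. The others, some members of short lists among them, were left out. Of 176 genes named with values 28 fall outside this rule and were chosen after their values were seen: acw-2, acw-12, am, con-10, csn-4, csp-2, gln-1, gln-2, hsp30, ncw-1, nit-2, nit-4, nmr, pex6, pex10, rpn-4, rpn-12, rpt-1, trx, vma-1, vma-3, vma-6, vma-7, vma-8, vma-11, vma-16, vph-1 and act. The 37 lists and the members were chosen with earlier results of these data known, 4 lists were added, and 3 wrong matches by synonym were dropped. The 8 alternatives changed the fold minimum, the adjustment, the centring, the SE or the genes used. No genome or sequence was used.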

Additional observations from a re-analysis of the deposited data

Results flagged for a closer look

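Some genes moved in opposite directions on the 2 media, each change passing the test on its own medium. Of the genes higher on MSM, 44 rose on MSM and fell on BM, and of the lower genes 25 fell on MSM and rose on BM. Centring raises every change on BM by 0.37, and some of the 25 were called as risen on BM only through it. Among all genes 218 rose on BM with centring and 84 without. Among genes with a symbol the differences were 4.22 for tob55, 3.42 for gsy-1, 3.37 for fbp-1, 3.24 for egt-1, 3.12 for gpi-1, 3.01 for sod-1, 2.95 for pex11, 2.93 for acu-9, 2.88 for erp38 and 2.64 for rib-3. The only gene with a symbol in the other direction was aod-3, at -6.63. All of these genes were drawn from those already called by the z test of the difference, so that test adds nothing here.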

How the results depend on the processing

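No paired analysis was possible because the deposited levels combine the 3 replicates of each stage, and for the same reason no replicate could be left out. Calls higher and lower on MSM were 1089 and 579. A 4-fold minimum gave 247 and 134, no minimum fold 3064 and 2812, no centring 1847 and 265, and centring on the mean 961 and 737. Without centring, genes that fell on BM numbered 1126 and genes that rose 84. Of the 176 named genes 8 gained a call without centring, among them vma-6 (1.06), rpt-1 (1.09) and act (1.13). Of the 176 named genes 18, all lower on MSM, lost the call without centring (-0.99 to -0.62), and 9, all higher, with centring on the mean (0.90 to 0.97): acu-6, arp2, csn-4, hsf-2, mek-2, ncw-1, oli, trx and ylo-1. With the SE multiplied by 3, 11 lost the call: NCU10448, ars-1, cao-1, con-13, gh47-5, gh6-2, ncw-1, nst-7, phy-2, set-9 and tah-4. Over genes usable at all times, mek-2 and oli did. Uncalled genes changed sign without centring: NCU08095 (0.0636), al-2 (0.128), al-3 (0.0385), aod-2 (0.0725), aod-5 (0.200), ccg-9 (0.36), cot-2 (0.15), gna-3 (0.0709), gpr-4 (0.38), hsp30 (0.33), nde-2 (0.14), ndi-1 (0.0170), nuc-1 (0.24) and rpn-4 (0.16). With centring on the mean am (-0.0117) and pma-1 (-0.0515) did so. The intervals rest on the authors' model, and differences close to 2-fold depend on the centring.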
